A study of Mus musculus with 2 samples.

Results

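Genes that mark neural progenitors and neurons (Nes, Pax6, Sox1, Sox11, Neurog1, Neurog2, Neurod1, Olig2 and Tubb3) were followed in mouse embryonic stem cells (mESCs) after knockdown of the deubiquitinase USP21. They were chosen by their gene symbols, and all 9 were found among the 23889 symbols of the deposited tables. The cells were E14, a stem cell line whose labels give a 19/Ola mouse as its origin, kept without feeder cells on gelatin in serum medium with LIF. One library came from cells transfected with a control shRNA (genotype label Normal) and 1 from cells transfected with an USP21 shRNA (genotype label USP21 knockdown), both harvested after 3 days; they are called the control and the knockdown, and paired values are given in that order. The labels do not say which USP21 shRNA was used or what share of the cells took it up. With 1 library per group no difference has a replicate check, and no p-value is given.

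In the embryo, SoxB1 factors such as Sox1 and the homeobox factor Pax6 mark cells of the neural plate and neural tube, and Nestin (Nes) is the intermediate filament of neural progenitors. Proneural basic helix-loop-helix (bHLH) factors, Neurog1 and Neurog2 among them, then start neuronal differentiation and switch on later factors such as Neurod1, while Sox11 and the neuronal tubulin Tubb3 mark cells that have begun to become neurons. Olig2 marks progenitors of motor neurons and oligodendrocytes. mESCs held in LIF keep most of these genes low, and many neuronal genes outside the nervous system are held down by the repressor REST.

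For 5 of the 9 genes the higher of both FPKM values (fragments mapped to a gene, scaled for its transcript length and for the depth of the library) was 1 or more, and 4 genes stayed under 0.1 in the control and in the knockdown. Neurod1, Sox11, Nes and Sox1 were higher with the USP21 shRNA, by 2.2, 1.90, 1.42 and 1.37 times. Tubb3 was lower, at 0.529 times its control level. Olig2, Neurog1 and Neurog2 were at or near the lowest values the libraries can show, and Pax6, at an estimated 7 fragments in each library, was a little above them. The 9 genes therefore had no single direction.

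The stretches upstream of the transcription start are shown for 4 genes, since Neurod1 and Sox11 had the largest differences upward, Tubb3 was the 1 gene above 1 FPKM that was lower, and Neurog1 was almost silent. They are RefSeq sequences of GRCm38.p6, given 5′ to 3′ in the direction of the gene and ending before the first start annotated in RefSeq or GENCODE M21. Capitals mark the E-box CANNTG bound by bHLH factors, the Sox core CATTGT and the octamer ATGCAAAT bound by POU factors such as Oct4, each searched on both strands. Neurod1 lies at chr2:79456752-79456886 (minus strand), Sox11 at chr12:27342719-27342968 (minus strand), Tubb3 at chr8:123411303-123411423 (plus strand) and Neurog1 at chr13:56252181-56252430 (minus strand).
Neurod1: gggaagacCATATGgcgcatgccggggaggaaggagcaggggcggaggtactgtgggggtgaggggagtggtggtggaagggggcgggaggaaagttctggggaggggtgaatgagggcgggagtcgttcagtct
Sox11: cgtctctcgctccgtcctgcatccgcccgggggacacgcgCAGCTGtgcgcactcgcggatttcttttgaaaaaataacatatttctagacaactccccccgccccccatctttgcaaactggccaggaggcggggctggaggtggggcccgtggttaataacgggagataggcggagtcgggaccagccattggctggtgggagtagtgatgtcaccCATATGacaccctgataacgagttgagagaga
Tubb3: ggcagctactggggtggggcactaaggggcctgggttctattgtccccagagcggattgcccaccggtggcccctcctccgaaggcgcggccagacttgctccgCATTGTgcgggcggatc
Neurog1: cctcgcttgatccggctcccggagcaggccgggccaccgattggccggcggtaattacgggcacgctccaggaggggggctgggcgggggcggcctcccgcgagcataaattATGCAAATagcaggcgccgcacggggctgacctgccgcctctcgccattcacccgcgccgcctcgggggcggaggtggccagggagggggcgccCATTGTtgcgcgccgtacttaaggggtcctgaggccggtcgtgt

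The stretch of Neurod1 holds 1 E-box and that of Sox11 holds 2, and neither holds the Sox core or the octamer. That of Tubb3 holds 1 Sox core, and that of Neurog1 holds 1 Sox core and 1 octamer. All 9 genes matched the promoter table, with 10 windows of 300 bases, as Pax6 has 2. An E-box was present in 4 of these 10 windows, against 72.3% of 32851 promoter windows of that length, a set without chromosome 18. The octamer was present in 2 (Sox1 and Neurog1), against 1.74% of that set, and the Sox core in 3 (Neurog1, Olig2 and Tubb3), against 12.6%. The 10 windows had between 10 and 37 CG dinucleotides, where the median over the 32851 windows was 7. These matches describe the letters of the windows, and no binding was measured here.

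Tubb3 and Sox1 were the highest in both libraries, and the order of the other genes differed in part. With the control shRNA the order from the highest was Tubb3, Sox1, Nes, Sox11, Neurod1, Pax6, Olig2, Neurog1 and Neurog2. With the USP21 shRNA Neurod1 was the third, ahead of Sox11 and Nes, and Neurog2 stood ahead of Neurog1. Nes, Sox11 and Neurod1 lay between 1.46 and 1.71 FPKM in the control library, so without replicates their order there cannot be told from equal levels. In bulk RNA, fewer cells of a type and less RNA per cell cannot be told apart.

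**Figure D1:**
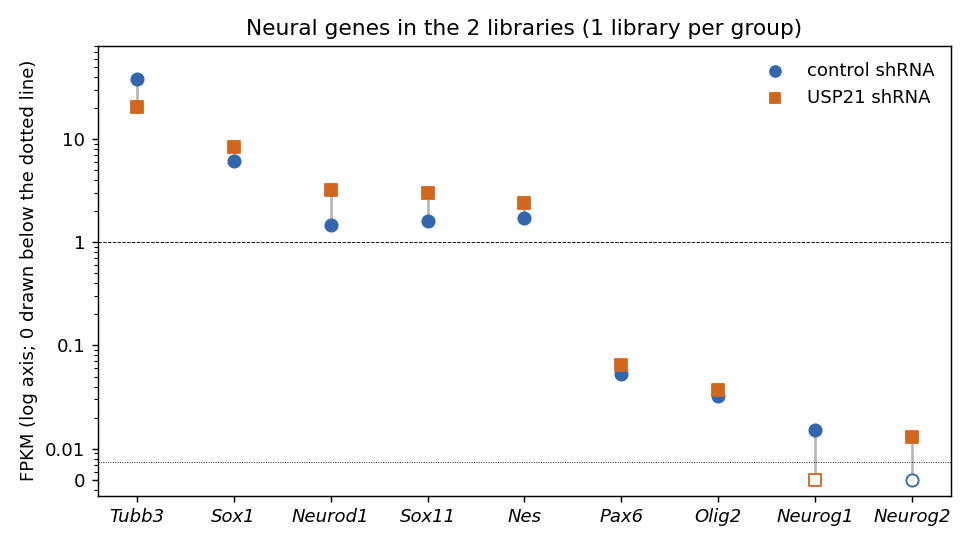
FPKM of the 9 neural genes (log axis, 1 library per group), with circles for the control shRNA, squares for the USP21 shRNA and open symbols for values listed at 0; the dashed line marks an FPKM of 1. Neurod1, Sox11, Nes and Sox1 have the square above the circle, Tubb3 has it below, and Pax6, Olig2, Neurog1 and Neurog2 lie under 0.1.

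Differences are given as log2((FPKM USP21 shRNA + 0.1)/(FPKM control shRNA + 0.1)), a scale that understates the difference of low genes. A gene was counted as past 2-fold where this ratio was 1 or more, or -1 or less, and its higher FPKM was 1 or more. Of all 11927 genes at that level, 2.30% were 2-fold higher with the USP21 shRNA and 2.03% were 2-fold lower. Of the 5 neural genes at that level, 1 (Neurod1) was 2-fold higher and 0 were 2-fold lower. Their median log2 ratio was 0.48, against 0.0031 over all genes at that level, and with so few genes this is a description only.

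Sox1, a SoxB1 factor of the early neural plate (chromosome 8 of GRCm38, 12395295 to 12400126, plus strand, 1 exon), stood at 6.08 FPKM in the control and 8.30 in the knockdown. Its log2 ratio was 0.44. Among the 1968 genes with a mean FPKM between 5 and 10, the middle 90% of log2 ratios ran from -0.57 to 0.76, and Sox1 lay inside that range. The other SoxB1 factors of the neural plate were Sox2, which mESCs also need for pluripotency, and Sox3. Sox2 was at 240.7 and 218.0 FPKM, and Sox3 at 1.78 and 1.81. Sox1 made up 2.45% of the summed SoxB1 FPKM in the control and 3.64% in the knockdown, and Sox2 made up 96.8% and 95.6%.

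Nestin (Nes, chromosome 3, 87971078 to 87980451, plus strand) was at 1.71 FPKM in the control and 2.42 in the knockdown, a log2 ratio of 0.48. Among the 3107 genes with a mean FPKM between 1 and 5, the middle 90% of log2 ratios ran from -0.91 to 0.96, which takes in Nes. Vimentin (Vim), a filament protein shared by progenitors and many other cells, was far higher at 174.1 and 167.0 FPKM. Pax6 (chromosome 2, 105668900 to 105697364, plus strand), the homeobox factor of cortical and spinal progenitors, was at 0.0530 and 0.0647 FPKM. Both Pax6 values lay under 0.1, so no log2 ratio is given for it.

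Sox11, a SoxC factor of committed neuronal precursors (chromosome 12, 27334264 to 27342574, minus strand, 1 exon), was at 1.6 FPKM in the control and 3.03 in the knockdown. Its log2 ratio of 0.89 fell short of 2-fold and lay just inside the middle 90% of genes of its level. The 2 other SoxC factors were also higher, Sox4 at 6.84 and 9.11 FPKM and Sox12 at 12.1 and 15.4 FPKM. Their log2 ratios were 0.41 and 0.34. After correction for transcript length they were 0.33 and 0.28, and Sox11 was at 0.65, so all 3 SoxC genes still pointed the same way. Together with the SoxB1 genes, 6 were listed, 0 were past 2-fold, and the median log2 ratio was 0.38. The summed FPKM of the 3 SoxC genes was 20.6 in the control and 27.6 in the knockdown, and the part of it from Sox11 was 7.77% and 11%.

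Neurod1, a bHLH factor of differentiating neurons and of endocrine cells (chromosome 2, 79452521 to 79456751, minus strand), was at 1.46 FPKM in the control and 3.21 in the knockdown. Its log2 ratio of 1.09 was past 2-fold and lay above the middle 90% of genes of its level. With a pseudocount of 1 in place of 0.1 its log2 ratio was 0.78, so the call depends on how low values are weighted. Cerkl, a gene on the same strand, overlaps 7.37% of the exon bases of Neurod1, and its own level was 0.0964 FPKM in the control and 0.351 in the knockdown. An antisense gene covers 5.64% of these bases. How the shared fragments were assigned was not tested.

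The proneural factors Neurog1 and Neurog2 were at or near 0 in both libraries. Neurog1 (chromosome 13, 56250478 to 56252163, minus strand) was at 0.0153 FPKM in the control and listed at 0 in the knockdown. Neurog2 (chromosome 3, 127633135 to 127635631, plus strand) was listed at 0 in the control and at 0.0130 in the knockdown. From the steps between the lowest values, each of these values above 0 was estimated to be about 1 fragment. A small difference in Neurog1 or Neurog2 could therefore not be told at this depth. Of the 12 proneural and neuronal bHLH genes listed, 9 stayed under 0.1 FPKM in both libraries, and 3 (Neurod2, Neurod4 and Neurod6) were listed at 0 in both. Neurog3, which acts before Neurod1 in endocrine cells, was at 0.415 and 0.368 FPKM. Ascl2, a bHLH factor better known from the trophoblast, was the other one over 1 FPKM, at 2.61 and 2.82. Neurod1 was the 1 gene of that list past 2-fold, and the median of the 2 genes over 1 FPKM was 0.60.

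Olig2 (chromosome 16, 91225457 to 91228677, plus strand), the bHLH factor of motor neuron and oligodendrocyte progenitors, was at 0.0324 FPKM in the control and 0.0369 in the knockdown. These values were estimated at about 3 and 2 fragments. Its neighbour in function, Olig1, was at 0.501 and 0.102 FPKM. Of 13 oligodendrocyte lineage genes, 3 reached an FPKM of 1 and 0 were past 2-fold, with a median of 0.70. The 2 highest were Cnp, a myelin enzyme found in many cells, at 22.2 and 21.4 FPKM, and Pdgfra, a growth factor receptor also made by primitive endoderm, at 2.48 and 4.22 FPKM.

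Tubb3, the class III beta-tubulin of neurons (chromosome 8, 123411424 to 123422015, plus strand), was the highest of the 9 genes. It was at 38.5 FPKM in the control and 20.4 in the knockdown, with a log2 ratio of -0.91. Among the 4686 genes with a mean FPKM between 10 and 50, the middle 90% of log2 ratios ran from -0.53 to 0.56, and Tubb3 lay below it. Of the 31-base words of its transcripts, 3.21% also occur in other genes, most of them beta-tubulins or their pseudogenes.

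The beta-tubulin family gave a comparison within each library. Tubb5 and Tubb4b, the abundant tubulins of dividing cells, made up 48.3% and 30.3% of the summed beta-tubulin FPKM in the control and 47.7% and 30.8% in the knockdown. Tubb3 made up 1.76% and 1.13%. The log2 ratios of Tubb5, Tubb4b, Tubb2b, Tubb6 and Tubb4a lay between -0.34 and -0.25, Tubb2a was at 0.093, and Tubb3 had the lowest of these 7. Tubb1, the platelet form, was at 0.0514 FPKM in the control library and listed at 0 in the other.

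**Figure D2:**
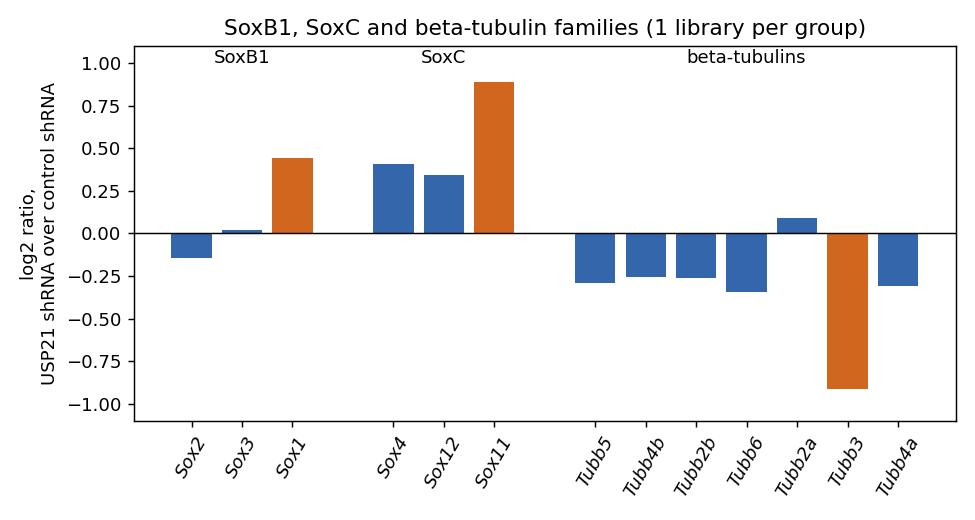
Log2 ratio (USP21 shRNA over control shRNA, pseudocount of 0.1 FPKM, 1 library per group, no error bars) of the SoxB1, SoxC and beta-tubulin genes, with members of the 9 neural genes in orange. Sox1 and Sox11 have the highest bars of their families at 0.44 and 0.89, and Tubb3 the lowest at -0.91.

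**Figure D3:**
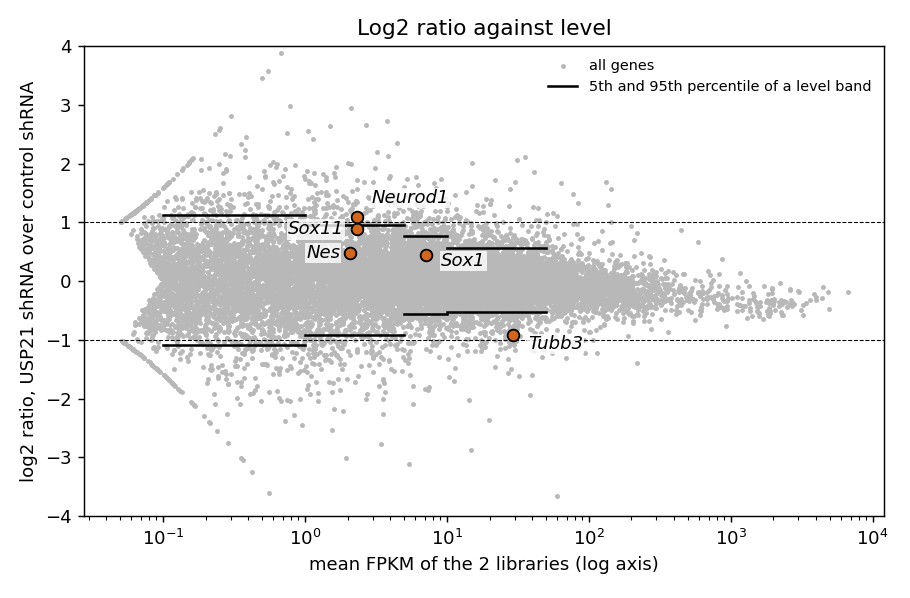
Log2 ratio against mean FPKM (log axis) for 15316 genes whose higher FPKM was 0.1 or more, with the 5 neural genes at that level in orange; black lines give the 5th and 95th percentile in level bands, dashed lines 2-fold, and 4 genes lie outside the axis limits of -4 and 4. Neurod1 is above the upper black line of its band, Tubb3 below the lower one, and Sox11, Nes and Sox1 lie between them.

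The neuronal programme around these genes was read from 14 further lists, some of which hold some of the 9 genes too. Among 29 neural plate and progenitor transcription factors, 11 reached an FPKM of 1. Of these, 1 was 2-fold higher (Meis1, a homeobox cofactor, at 0.525 and 1.84 FPKM) and 0 were 2-fold lower, with a median log2 ratio of 0.34. Of the exon bases of Meis1, 9.77% are shared with a gene on the same strand and 8.51% with an antisense gene. The highest of the list was Sox2, given above.

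The Notch pathway holds progenitors back from differentiation. Of 19 genes listed for it, 11 reached an FPKM of 1 and 0 were past 2-fold in either direction. Their median log2 ratio was 0.23, and 0.033 after correction for transcript length. Rbpj, the DNA-binding factor of the pathway, was at 89.8 and 143.5 FPKM. Hes1, a bHLH repressor that the pathway switches on, was at 39.2 and 23.7 FPKM, while Hes5, the form typical of neural progenitors, was at 0.0215 and 0.0244. Of 14 radial glia and progenitor structural genes, 7 reached an FPKM of 1 and 0 were past 2-fold, with a median of 0.064. This median was -0.0013 after the length correction and 0.24 with equal FPKM sums, so it has no set direction. Besides Vim, the highest was Msi2, an RNA-binding protein of stem cells, at 33.0 and 44.6 FPKM.

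Among 18 neuronal cytoskeleton genes, 14 reached an FPKM of 1. Of these, 10 had a log2 ratio below 0, against 5912 of all 11927 genes at that level. Dpysl2, a regulator of axon growth, was at 5.84 FPKM in the control and 1.5 in the knockdown, a log2 ratio of -1.89. Prph, the filament peripherin of peripheral neurons, was at 6.99 and 2.81 FPKM, a log2 ratio of -1.28. These 2 genes were the ones past 2-fold, both lower, and the median of the list was -0.23. With equal FPKM sums, 6 of the 14 genes rather than 4 were above 0, and 8438 rather than 6015 of all 11927 genes. Stmn2 and Stmn1, regulators of microtubules, were the highest at 152 and 104 FPKM in the control and 155 and 103 in the knockdown. Dcx, which marks newborn neurons, was listed at 0 in the control and at 0.0071 in the knockdown.

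Of 20 synaptic and transmitter genes, 6 reached an FPKM of 1, 3 of these were past 2-fold (2 higher and 1 lower), and the median was 0.54. Dlg4, the scaffold PSD-95 of the synapse, was at 1.49 and 4.13 FPKM, a log2 ratio of 1.41. Slc32a1, the transporter that loads GABA into vesicles, went the other way, at 9.81 and 1.05 FPKM, a log2 ratio of -3.11. An antisense gene covers 24.9% of the exon bases of Slc32a1, and without strand information their fragments cannot be told apart. Vamp2, a vesicle protein with roles outside neurons, was the highest of this list at 13.4 and 17.5 FPKM. Slc17a6 and Gria2, of glutamatergic neurons, were listed at 0 in both libraries.

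Of 22 neuronal RNA-binding proteins and neuron identity factors, 9 reached an FPKM of 1 and 0 were past 2-fold, with a median log2 ratio of 0.15. This median was 0.0071 after the length correction and 0.32 with equal FPKM sums. Rbfox2, a splicing factor present in many tissues, was at 22.6 and 25.1 FPKM, and Elavl2, a neuronal RNA-binding protein also made in germ cells, was at 6.11 and 4.81. All 13 genes of the REST repressor complex reached an FPKM of 1 and 0 were past 2-fold. Their median was 0.013, and -0.019 after the length correction. Rest itself was at 35.9 and 41.7 FPKM, and its histone deacetylases Hdac1 and Hdac2 at 155 and 107 FPKM in the control and 154 and 99.8 in the knockdown.

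**Figure D4:**
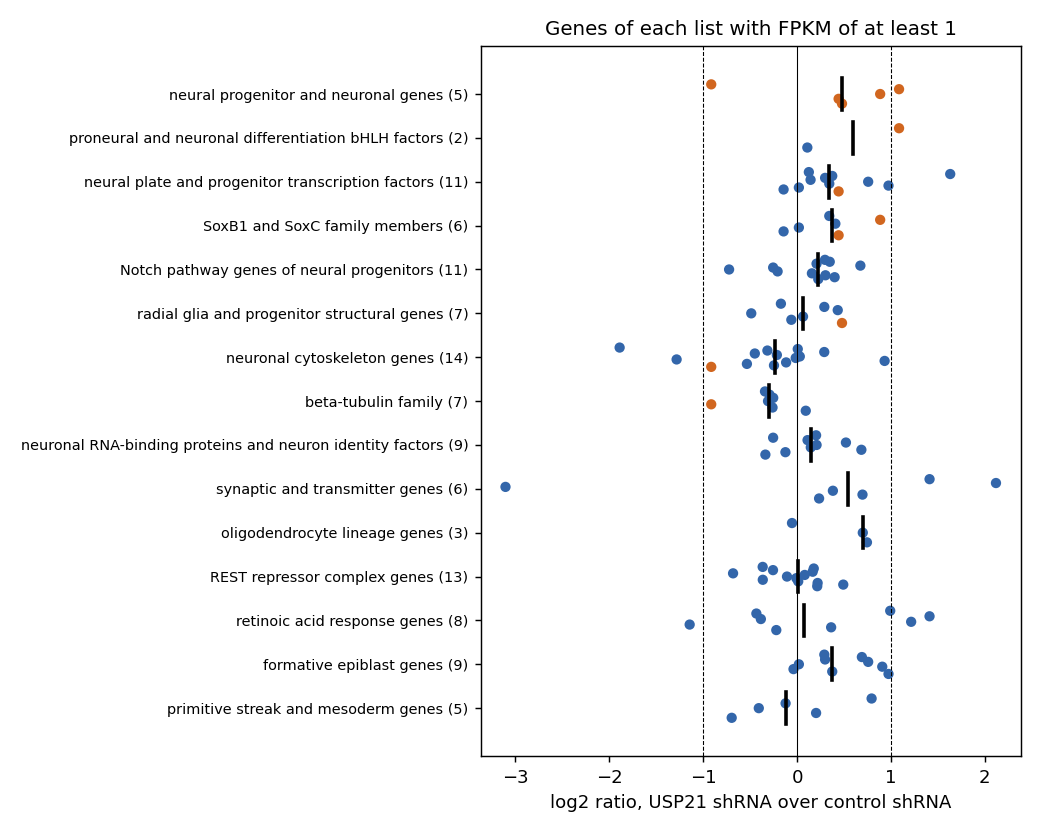
Log2 ratio of each gene whose higher FPKM was 1 or more, by list, with the number of such genes in parentheses, the 9 neural genes in orange where they reach that level, and a black bar at the median of the list. The 5 neural genes spread from -0.91 to 1.09, and the cytoskeleton, beta-tubulin and mesoderm lists have medians below 0 (the mesoderm list at 0.054 with equal FPKM sums).

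The identity of the cells and the knockdown were read from the same tables. Usp21 was at 26.2 FPKM in the control and 3.49 in the knockdown, a log2 ratio of -2.87. All 10 pluripotency markers listed were at 61.3 FPKM or above in both libraries, and 0 were past 2-fold. Of them, 1 of 10 had a log2 ratio above 0 (4 of 10 with equal FPKM sums). Over all 11927 genes that reached an FPKM of 1, 6015 were above 0 (8438 with equal FPKM sums). The summed FPKM of the 10 markers was 4630 and 3584. The highest of them were Dppa5a, at 1849 and 1285 FPKM, and Pou5f1, at 868 and 752. The log2 ratio of Dppa5a was -0.52, and -0.24 after the length correction. Nanog had the lowest log2 ratio of the 10, -0.86, at 467 and 258 FPKM. The FPKM of all symbols summed to 613617 and 543206. Markers of neural crest summed to 43.8 and 33.3 FPKM, those of primitive endoderm to 79.8 and 73.1, and those of trophectoderm to 44.9 and 37.1. Among their genes that reached 1 FPKM the median log2 ratio was -0.30, -0.18 and 0.20, in that order. With equal FPKM sums it was -0.12, -0.0066 and 0.37. A few genes made up most of each of these marker sums. For neural crest these were Foxd3, at 22.7 and 18.5 FPKM, and Ngfr, at 18.3 and 11.8. Sox10, Tfap2a, Snai2 and Pax3 stayed under 1 FPKM in both libraries. For primitive endoderm they were Lama1 and Dab2, and for trophectoderm Krt8 and Krt18. Cdx2, also of trophectoderm, was at 0.157 and 0.268 FPKM, and Elf5 at 0.0330 and 0. Sox7, of primitive endoderm and vessels, was past 2-fold at 4.68 and 1.97 FPKM. Of 8 fibroblast markers 4 stayed under 0.1 FPKM in both libraries and Lum was listed at 0 in both. Their sum was 19.9 and 7.19 FPKM, most of it from Thy1, which is also a neuronal surface protein, at 17.3 and 5.29 FPKM. Thy1 was past 2-fold too, with a log2 ratio of -1.69. The part of these other cell types in the values of the 9 genes was not tested.

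Transcript length moved with the log2 ratio across genes. Among genes at 1 FPKM or more with a known length, the median log2 ratio was -0.16 in the fifth with the shortest transcripts, which holds Tubb3 (1868 bases), and 0.18 in the fifth with the longest, which holds Nes (6126 bases) and Sox11 (8311 bases). With this trend removed by a lowess fit, the log2 ratios were 1.12 for Neurod1, 0.65 for Sox11, 0.36 for Sox1, 0.33 for Nes and -0.83 for Tubb3. Each kept its direction. With the FPKM sums of both libraries made equal, the median over all genes was 0.18, and on that scale Sox11 was past 2-fold at 1.05 and Sox2 turned from -0.14 to 0.033. On it 75.3% of the genes past 2-fold were higher, against 53.1% as deposited.

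**Figure D5:**
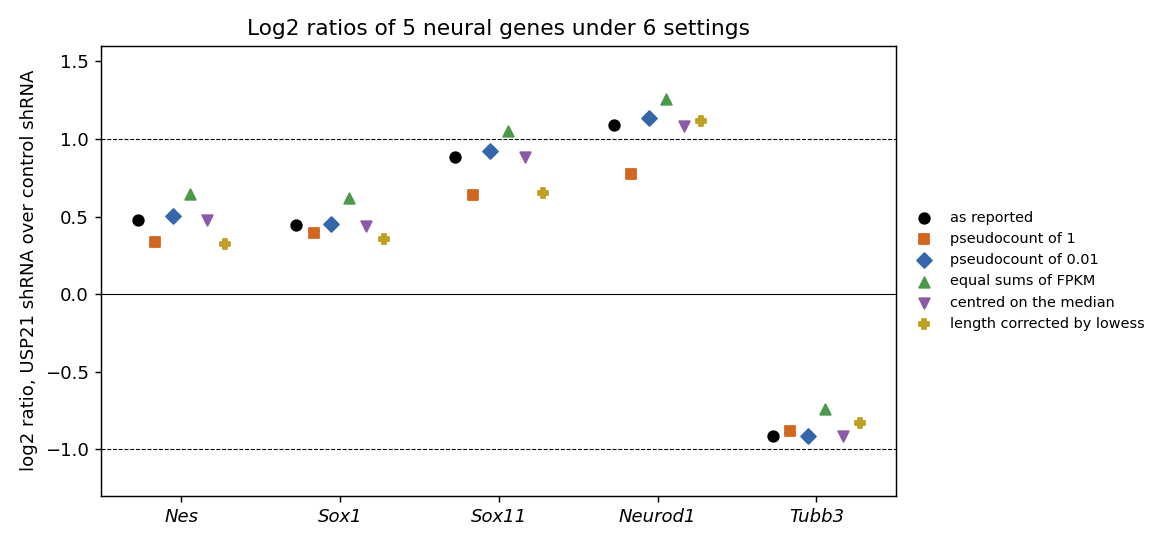
Log2 ratio of the 5 neural genes with an FPKM of at least 1, as reported and under 5 other settings (1 library per group, no error bars; dashed lines mark 2-fold). Neurod1 ranges from 0.78 to 1.25, Sox11 from 0.64 to 1.05, and each gene stays on its own side of 0, which a pseudocount cannot change.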

How the data were processed

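Total RNA of E14 cells was extracted with Trizol and made into libraries with Illumina protocols. For each library the authors deposited a table of FPKM values by gene symbol. CASAVA 1.8.2, TopHat2 2.0.14, Cufflinks 2.2.1 and the build mm9 are named in the submitters' processing notes, with no role or order. The annotation, the strandedness and any filter are not given in the sources used here.

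The FPKM values were used as deposited, with a pseudocount of 0.1 and no scaling between libraries. They summed to 613617 in the control and 543206 in the knockdown, with 6578 and 6638 symbols listed at 0. Without counts, no count model, interval or detection floor was computed. Low values move in steps of 1 fragment, and their most common ratio gave a depth about 1.24 times as large for the control as for the knockdown. The size of 1 fragment was estimated from 35 such genes and GENCODE M21 lengths, so fragment numbers are approximate. Lengths, positions and overlaps came from GENCODE M21 (GRCm38), where 94.6% of the symbols had a transcript, and promoters from RefSeq (GRCm38.p6). No coordinates come from the deposited tables.

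The 9 genes and the lists were chosen with earlier results of these data known, and no test was run. From each list the genes past 2-fold and the 2 with the highest mean FPKM were to be named. Olig1, Neurog3, Hes5, Sox3, Sox4, Rest, Dcx, Tubb1, Tubb2a, Tubb2b, Tubb4a, Tubb6 and genes listed at 0 were named beside the rule. So were Thy1 and the other cell type markers, and Fgf5, Lef1, Otx2, Pou3f1, Zic2, Zic5 and Cdh2 of the formative list. Of the genes the rule would name, 2 are not reported here. The alternatives were other pseudocounts and filters, equal sums, centring on the median and a lowess fit (span 0.3) on log transcript length. The code was tested on made-up libraries with known differences. Python 3.11.15, numpy 2.4.6, pandas 2.3.3, statsmodels 0.14.6 and matplotlib 3.10.9 were used.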

Additional observations from a re-analysis of the deposited data

How the results depend on the processing

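Neurod1, Sox11, Sox1, Nes and Tubb3 kept their direction under all 5 alternative settings of the log2 ratio, with ranges of 0.78 to 1.25, 0.64 to 1.05, 0.36 to 0.62, 0.33 to 0.65 and -0.92 to -0.74. No change of pseudocount can turn the sign of a log2 ratio, and centring moved the ratios by 0.0031 only. Equal sums raised them, so for the genes above 0 only the length correction could have turned the direction. The number of the 9 genes past 2-fold was 1 (Neurod1), but 0 with a pseudocount of 1, 2 with equal sums of FPKM (Neurod1 and Sox11), and 0 with a floor of 5 FPKM, which removes Neurod1. It was 1 under the other alternatives. The median log2 ratio, 0.48 over the 5 genes with at least 0.1 FPKM, was 0.39 with a pseudocount of 1, 0.50 with 0.01, 0.65 with equal sums, 0.36 with the length correction, and 0.18 over all 9 genes without the filter. Over all genes the number past 2-fold was 516, against 208 with a pseudocount of 1, 980 with a floor of 0.1 FPKM or none, and 216 with a floor of 5. No paired analysis was possible because each group has 1 library. For the same reason no library could be left out, and differences between cultures or preparations cannot be told apart from the knockdown. Pax6, Olig2, Neurog1 and Neurog2 were too low to compare.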

Other observations

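Lists close to the neural programme gave the following values, and some of their genes also stand in the neural lists above. Retinoic acid drives neural differentiation of mESCs, and 15 of its receptors, carriers, enzymes and response genes were listed, of which 8 reached an FPKM of 1. Stra8, a retinoic acid target of germ cells, was at 5.30 FPKM in the control and 14.3 in the knockdown, and Crabp2, a retinoic acid carrier, at 1.70 and 4.08, with log2 ratios of 1.41 and 1.22. Crabp1, the related carrier, was at 24.3 and 10.9 FPKM, a log2 ratio of -1.14, and -0.91 after the length correction. The 3 genes past 2-fold thus differed in direction, and the median of the list was 0.071. The highest, the receptors Rarg and Rara, were at 49.9 and 43.6 FPKM in the control and 64.2 and 37.4 in the knockdown.

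Of 11 genes of the formative epiblast, the state between naive pluripotency and lineage choice, 9 reached an FPKM of 1. Of these, 8 had a log2 ratio above 0 and 0 were past 2-fold, with a median of 0.38. Over all 11927 genes at that level, 6015 were above 0, and 8438 with equal sums of FPKM. Otx2, Pou3f1, Sox3, Zic2, Zic5 and Cdh2 of this list also stand in the neural lists above, so its values are not a separate result. Dnmt3a, a DNA methyltransferase, was at 19.4 and 36.5 FPKM, while its relative Dnmt3b was at 24.5 and 23.9. Fgf5 and Lef1 of this list stayed under 1 FPKM and outside the counts, and both were lower in the knockdown. Fgf5 was at 0.0999 and 0.0517 FPKM, too low to compare, and Lef1 at 0.471 and 0.366. Of 14 primitive streak and mesoderm genes, 5 reached an FPKM of 1 and 0 were past 2-fold, with a median of -0.12 that became 0.054 with equal sums of FPKM. The highest were Tbx3 at 70.6 and 64.9 FPKM and Mesp2 at 2.47 and 1.84. Of 7 trophectoderm markers 5 reached an FPKM of 1, and 1 of these, Hand1, was 2-fold higher, against 2.30% of all 11927 genes at that level. Hand1, a factor of trophoblast and mesoderm, was at 0.403 and 1.25 FPKM, so it reached 1 FPKM only in the knockdown. Of the 5 markers 3 were above 0 and 2 below, Krt8 at a log2 ratio of -0.65 and Krt18 at -0.46.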
